A study of Mus musculus with 2 samples.

Results

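Genes of epithelial cell contacts, 10 in number, were followed through the endocrine cells of mouse pancreatic islets: Dsp, Jup and Pkp2 of the desmosome, Cldn3, Cldn4 and Cldn7 of the tight junction, the adhesion molecules Cdh1 and Epcam, the gap junction gene Gjd2 and the keratin gene Krt18. They were found by symbol in the deposited gene table, where all 10 of 10 were present among 27998 genes. The islets came from C57BL/6 mice at postnatal day 70 and were dissociated with trypsin and EDTA before 10x Chromium 3′ capture. The TG library came from mice labelled as transgenic for the microRNA miR-503 in beta cells alone, and the WT library from wild type mice; the promoter of the transgene, the sex of the mice and the number of mice pooled are not stated in the labels. As each group is 1 library, there are no replicates to set against any difference, so no p-value is given and the intervals cover counting error only. The genes were selected with earlier results of these libraries known, and Dsp and Cldn7 were chosen by their low ratios of TG over WT in beta cells, so the values are a description and not independent evidence.

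Cells were classed by their hormone messages. A beta cell had at least 25% of its unique molecular identifiers (UMIs, counted transcript molecules) from Ins1 and Ins2, an alpha cell at least 3% from Gcg, a delta cell at least 2% from Sst and a gamma cell at least 3% from Ppy, and cells that met more than 1 rule were left out (356 in TG and 231 in WT). This gave 2624 TG and 3194 WT beta cells, 583 TG and 399 WT alpha cells, 99 TG and 76 WT delta cells, and 103 TG and 116 WT gamma cells. Before that exclusion the beta rule was met by 2640 TG and 3218 WT cells and the alpha rule by 780 TG and 548 WT. The delta rule was met by 343 TG and 196 WT cells and the gamma rule by 380 TG and 298 WT. Delta and gamma values thus rest on a minority of the cells that met their rule. Of the 8 beta markers and the 8 alpha markers, none was at 0 in its own class in either library. Lepr was at 0 among the 6 delta markers in delta cells of both. The lists include the hormone genes of the rules. All 8 beta markers were above 0 in alpha cells too, and all 8 alpha markers in beta cells. Detection thus does not test the identity of a class. The libraries held 109243270 (TG) and 104677537 (WT) UMIs over 4158 TG and 4540 WT barcodes, of which 25 were shared. The median number of UMIs outside the 5 hormone genes was 11525 in TG and 11586.5 in WT beta cells. Insulin took a median of 60.5% of UMIs in TG and 50.4% in WT beta cells, and mitochondrial genes took 2.03% in TG and 3.23% in WT. Xist with no Y-linked UMI was seen in 182 TG and 0 WT beta cells, and a Y-linked UMI with no Xist in 1845 TG and 2629 WT beta cells. Both were seen in 167 TG and 8 WT beta cells, which were kept in the class. Whether these were doublets or held free RNA was not tested.

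Epithelial cells are joined by several kinds of contact. At the desmosome, cadherins of the desmoglein and desmocollin families are bound inside the cell by plakoglobin (Jup) and plakophilins such as Pkp2, and desmoplakin (Dsp) ties this plaque to keratin filaments, of which keratin 18 (Krt18) forms pairs with keratin 8. Claudins seal the tight junction, E-cadherin (Cdh1) is the cadherin of the adherens junction, and Epcam is an epithelial adhesion protein that binds claudin 7. Connexin 36, the product of Gjd2, forms the gap junctions through which neighbouring beta cells are electrically coupled, which synchronises their calcium waves and insulin release.

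A microRNA pairs with messages through its seed, bases 2 to 8. The TG mice are labelled as transgenic for miR-503, and the label does not name a mature arm. The arm miR-503-5p is shown, and only its matches were searched, not those of miR-503-3p. The sequence of miR-503-5p is from RefSeq (GRCm38.p6, chrX:53054027-53054049, minus strand) and capitals mark the seed.
mmu-miR-503-5p: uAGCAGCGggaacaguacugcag
A mature microRNA has no poly(A) tail for 3′ capture, and 0 of the 2 deposited gene tables held the symbol Mir503, so its level was not read here. The longest annotated 3′ UTR of each gene was searched on the transcript strand for the complement of bases 2 to 8 (CGCTGCT) and of bases 2 to 7 followed by A (GCTGCTA), which can overlap at one site. Neither was in the 3′ UTR of any of the 10 genes, against 1632 of the 11314 genes measured in beta cells with a 3′ UTR (14.4%). The 3′ UTRs searched were 645 bases long for Dsp, 168 for Cldn7 and 845 for Jup, and the median over all 11314 genes was 1205. The shorter match to bases 2 to 7 alone (GCTGCT) was in 2 of the 10 genes, against 46.5% of all genes. These windows are shown with the 6 matched bases in capitals, on the strand of the transcript: both Cldn4 windows are on the minus strand (GRCm38, chr5:134945929-134945954 and chr5:134945877-134945902) and the Epcam window on the plus strand (chr17:87651041-87651066).
Cldn4 first match: tagctcttggGCTGCTccacatggct
Cldn4 second match: aaaatatcttGCTGCTtacatccaaa
Epcam match: ttccgaggtaGCTGCTgtgtatctgc
A match is a run of letters and not a shown site, and the absence of a match says only that these letters are not in the annotated window.

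In beta cells the desmosome genes were lower in TG, Dsp by the most. Dsp (chr13:38151294-38198577, plus strand, GRCm38) had 520 UMIs in TG and 1869 in WT beta cells, which is 10.5 CPM (9.61 to 11.4) in TG and 31.4 CPM (30.0 to 32.9) in WT; CPM here means UMIs per 1000000 after scaling the 8 sums of class and library by TMM factors, and intervals are exact Poisson 95% intervals. The log2 ratio of TG over WT was −1.58 (−1.72 to −1.44), 2.99-fold lower in TG. Among the 11907 genes with at least 100 UMIs in beta cells it ranked 21 from the lowest. Jup (chr11:100368958-100397763, minus strand) had 30.0 CPM in TG and 46.1 CPM in WT beta cells, a log2 ratio of −0.62 (−0.71 to −0.53). Pkp2 (chr16:16213318-16272712, plus strand) differed least of the 3, with 8.30 CPM in TG and 9.59 CPM in WT and a log2 ratio of −0.21 (−0.40 to −0.02).

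**Figure D1:**
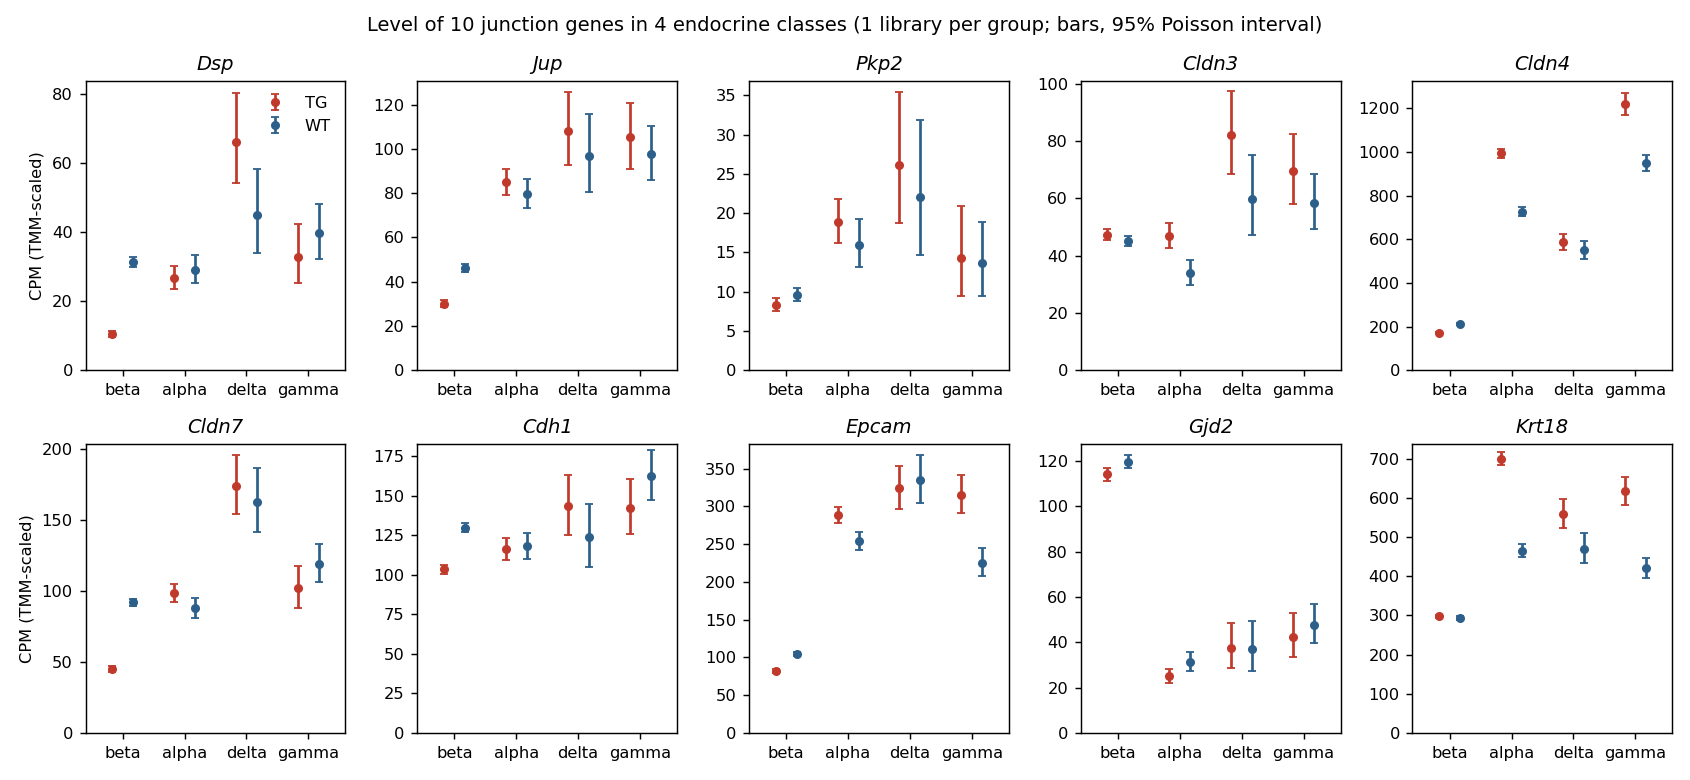
Level of each of the 10 junction genes (CPM, TMM-scaled, axis from 0) in beta, alpha, delta and gamma cells; red points are the TG library and blue points the WT library, with exact Poisson 95% intervals. In beta cells Dsp stood at 10.5 CPM in TG and 31.4 CPM in WT, while Gjd2 was highest in beta cells in both libraries.

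None of the 3 genes was lower in TG by more than counting error in the other endocrine cells. In alpha cells Dsp had 26.7 CPM (23.5 to 30.2) in TG and 29.1 CPM (25.3 to 33.3) in WT, a log2 ratio of −0.12 with an interval that includes 0 (−0.39 to 0.15). In delta cells it was higher in TG, at 66.2 CPM (54.1 to 80.2) from 104 UMIs, against 44.9 CPM (34.0 to 58.2) from 57 UMIs in WT, a log2 ratio of 0.56 (0.08 to 1.05). Gamma cells had 32.9 CPM in TG and 39.7 CPM in WT, with a log2 ratio of −0.27 (−0.75 to 0.20). The beta ratio minus the ratio of the other class was −1.46 (−1.76 to −1.16) for alpha, −2.14 (−2.63 to −1.65) for delta and −1.31 (−1.79 to −0.84) for gamma cells. For Jup the log2 ratios were 0.09 in alpha, 0.16 in delta and 0.11 in gamma cells, each with an interval that includes 0, and the beta ratio minus these was −0.71, −0.78 and −0.73. The ratios of Pkp2 outside beta cells ran between 0.08 and 0.24, all with intervals that include 0.

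The order of Dsp over the classes differed between the libraries. In TG it ran from delta through gamma and alpha to beta cells, and alpha cells had 2.54 times the CPM of beta cells. In WT the order was delta, gamma, beta and alpha, the intervals of each neighbouring pair overlapped, and alpha cells had 0.926 times the CPM of beta cells. Jup was lowest in beta cells of both libraries, with alpha over beta ratios of 2.83 in TG and 1.72 in WT. Pkp2 was also lowest in beta cells of both, though its gamma and beta intervals overlapped in WT. Of the 10 genes, 8 were lower in beta than in alpha cells of TG and 5 in WT; scaled by total UMIs, insulin included, the counts were 9 in TG and 9 in WT.

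**Figure D2:**
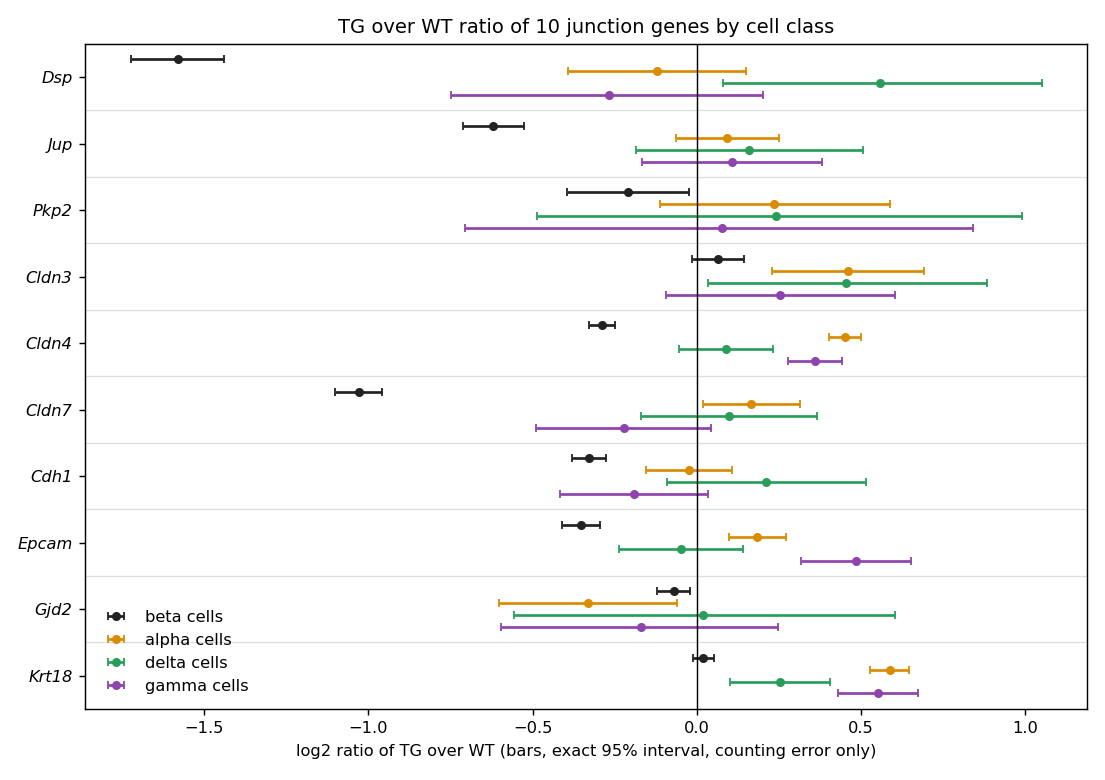
Log2 ratio of TG over WT for each of the 10 junction genes in beta (black), alpha (orange), delta (green) and gamma cells (purple), with exact 95% intervals that cover counting error only; the vertical line is no difference. The beta ratios of Dsp (−1.58), Cldn7 (−1.03) and Jup (−0.62) lie left of those of the other classes.

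The claudins split. Cldn7 (chr11:69964779-69967885, plus strand) had 45.0 CPM (43.1 to 46.9) in TG and 91.8 CPM (89.4 to 94.2) in WT beta cells, 2.04-fold lower in TG with a log2 ratio of −1.03 (−1.10 to −0.96), and it ranked 88 from the lowest. Cldn4 (chr5:134945119-134946934, minus strand) had 172 CPM in TG and 211 CPM in WT, a log2 ratio of −0.29 (−0.33 to −0.25). Cldn3 (chr5:134986214-134987472, plus strand) had 47.3 CPM in TG and 45.2 CPM in WT, a log2 ratio of 0.07 (−0.02 to 0.15) that became −0.25 when scaled by total UMIs. Cldn3 overlaps Wbscr25 on the opposite strand, which had 213 UMIs in beta cells of the 2 libraries together. Of the 3, Cldn7 alone was past a 1.5-fold difference.

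Cldn4 and Cldn7 were higher in TG in alpha cells, where the log2 ratios were 0.45 (0.40 to 0.50) and 0.17 (0.02 to 0.31). Cldn4 had 994 CPM in TG and 726 CPM in WT alpha cells, and 1219 CPM in TG and 950 CPM in WT gamma cells. Its order over the classes was gamma, alpha, delta, beta in both libraries with no neighbouring intervals that overlap, and its alpha over beta ratio was 5.77 in TG and 3.45 in WT. Cldn7 had 98.4 CPM in TG and 87.7 CPM in WT alpha cells, so beta and alpha cells overlapped in WT but beta cells were lowest in TG. Cldn3 was highest in delta and gamma cells, whose intervals overlapped in each library, and its log2 ratio was 0.46 in alpha, 0.46 in delta and 0.25 in gamma cells, the last with an interval that includes 0.

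Both adhesion genes were lower in TG beta cells by less than 1.5-fold. Cdh1 (chr8:106603351-106670246, plus strand) had 103 CPM in TG and 130 CPM in WT beta cells, a log2 ratio of −0.33 (−0.38 to −0.28). Epcam (chr17:87635979-87651129, plus strand) had 81.5 CPM in TG and 104 CPM in WT, a log2 ratio of −0.35 (−0.41 to −0.30). In alpha cells Cdh1 differed little, at −0.02 (−0.15 to 0.11), and Epcam was higher in TG, at 0.18 (0.10 to 0.27). In gamma cells Epcam had 316 CPM in TG and 226 CPM in WT, a log2 ratio of 0.48 (0.32 to 0.65). Epcam was lowest in beta cells of both libraries, with alpha over beta ratios of 3.54 in TG and 2.44 in WT, whereas Cdh1 stayed within a narrow span, from 103 to 143 CPM over the 4 TG classes and from 118 to 163 CPM over the 4 WT classes.

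Gjd2 and Krt18 were, with Cldn3, the genes with a ratio nearest 0 over all beta cells. Gjd2 (chr2:114009601-114013619, minus strand) had 114 CPM (111 to 117) in TG and 120 CPM (117 to 123) in WT beta cells, a log2 ratio of −0.07 (−0.12 to −0.02). It was the only one of the 10 genes that stood highest in beta cells of both libraries: alpha cells had 24.98 CPM in TG and 31.4 CPM in WT, a beta over alpha ratio of 4.57 in TG and 3.81 in WT. Krt18 (chr15:102028180-102032027, plus strand) had 297 CPM in TG and 293 CPM in WT beta cells, a log2 ratio of 0.02 (−0.01 to 0.05) that became −0.29 when scaled by total UMIs. In alpha cells Krt18 had 700 CPM (683 to 717) in TG and 465 CPM (450 to 482) in WT, a log2 ratio of 0.59 (0.53 to 0.65), and in gamma cells 617 CPM in TG and 421 CPM in WT. Krt8, the partner of keratin 18, had 514 CPM in TG and 633 CPM in WT beta cells, a log2 ratio of −0.30.

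Over the 10 genes, 3 (Dsp, Cldn7 and Jup) were at least 1.5-fold lower in TG beta cells, where 3.40% of the 11907 genes were, and 2 (Dsp and Cldn7) at least 2-fold lower, where 0.857% were. None was at least 1.5-fold higher in beta cells (4.27% of all genes). Scaled by total UMIs, 6 of the 10 were at least 1.5-fold lower and 0 higher, where 15.4% of all genes were lower and 2.02% higher. The median log2 ratio of the 10 was −0.31, against −0.02 over all genes, and 8 of the 10 were below 0, where 52.9% of all genes were. Since the genes were picked with these ratios in view, nothing is read from these counts. Jup passed 1.5-fold narrowly and did not pass it without doublet removal or among beta cells with an insulin share of at least 40%. In alpha cells 1 of 10 (Krt18) was at least 1.5-fold higher (2.63% of all genes) and 0 at least 1.5-fold lower (1.96%), with a median of 0.18 against 0.01 over the 8145 genes measured. In delta and gamma cells 9 of the 10 passed the minimum of 100 UMIs, Pkp2 being the exception, and 0 were past 1.5-fold in either direction, against 1.75% of genes lower and 1.98% higher in delta cells and 3.08% lower and 2.74% higher in gamma cells. The counts outside beta cells changed with the processing settings. Krt18 in alpha cells passed 1.5-fold narrowly and ran from 0.48 to 0.70. Under some settings Cldn3 reached 0.70 in alpha and in delta cells, past 1.5-fold. So did Cldn4 in alpha cells (0.60) and Krt18 in gamma cells (0.66).

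**Figure D3:**
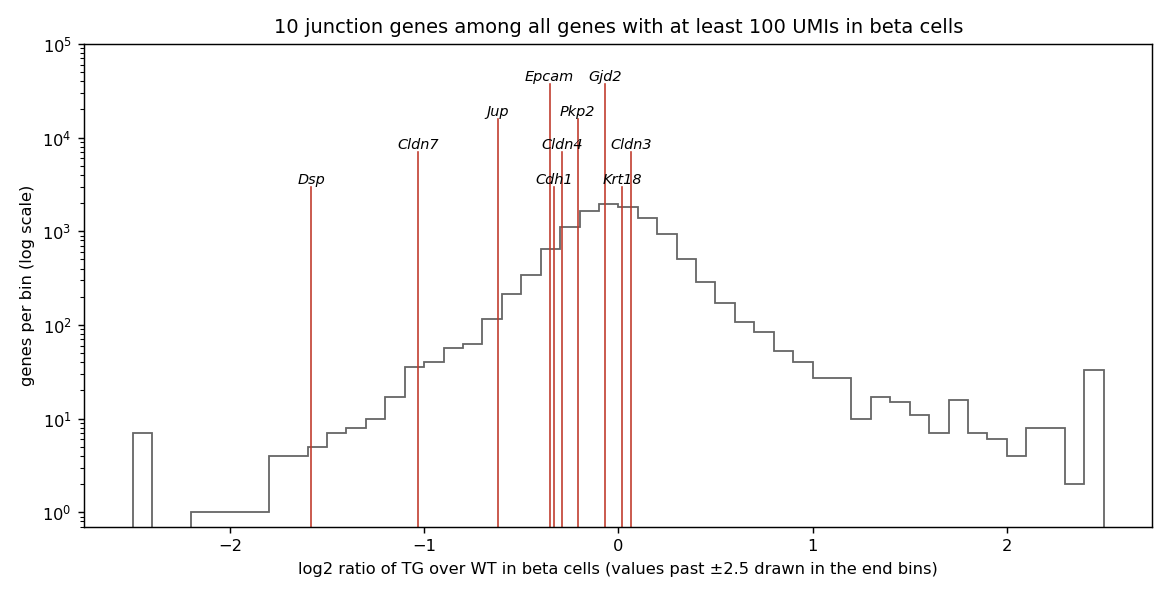
Distribution of the log2 ratio of TG over WT in beta cells for the 11907 genes with at least 100 UMIs (grey outline, log scale of genes per bin), with the 10 junction genes as red lines. Dsp ranks 21, Cldn7 88 and Jup 348 from the lowest, and Krt18, Gjd2 and Cldn3 lie near the median of −0.02.

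Dsp was sparsely counted in single beta cells. In TG 2194 of 2624 beta cells had 0 Dsp UMIs, 360 had 1, 56 had 2, 9 had 3, 4 had 4 and 1 had 5. In WT 1870 of 3194 had 0, 911 had 1, 304 had 2, 87 had 3, 21 had 4 and 1 had 5. The lower TG sum thus lay in fewer cells with any UMI and fewer with several, and the highest cell had 5 UMIs in each library. The 10% of cells with most Dsp held 67.7% of its UMIs in TG and 41.2% in WT, at means of 0.198 UMIs per cell in TG and 0.585 in WT. The variance over the mean was 1.25 in TG and 1.16 in WT, against 1.02 in TG and 1.06 in WT for counts that follow each cell's UMIs alone. After thinning each cell to 3000 UMIs outside the hormone genes it was 0.999 in TG and 1.10 in WT. Thinning lowered the mean to 0.0486 UMIs per cell in TG and 0.155 in WT. A lower mean by itself draws this measure toward 1, so the thinned values do not tell what part depth has in the spread.

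With cells thinned in this way, 124 of 2612 TG beta cells had a Dsp UMI (4.75%, 3.96 to 5.63, exact Clopper-Pearson interval) and 438 of 3171 WT beta cells (13.8%, 12.6 to 15.1), 12 TG and 23 WT shallower cells being left out; without thinning the shares were 16.4% in TG and 41.5% in WT. Cells of types that should lack desmosomes served as a rough measure of free RNA. Of macrophage-like cells, which met no hormone rule and carried at least 4 of 8 macrophage markers, 1 of 64 had a Dsp UMI in TG (1.56%, 0.0396 to 8.40) and 3 of 74 in WT (4.05%, 0.844 to 11.4), at medians of 9906 UMIs outside the hormone genes in TG and 10358 in WT. The thinned TG beta share lies inside the interval of the TG macrophage-like share, while in WT the beta interval lies above it. Summed acinar markers had 1983 UMIs in the TG macrophage-like cells and 17 in those of WT. Before thinning, a single TG macrophage-like cell held 4 of 5 Dsp UMIs, and a single WT cell held 6 of 16. Whether such cells held more than free RNA was not tested, so their shares are not read as free RNA alone. Without thinning, 2 of 64 TG macrophage-like cells (3.13%, 0.381 to 10.8) and 7 of 74 WT macrophage-like cells (9.46%, 3.89 to 18.5) had a Dsp UMI, and the beta intervals of both libraries lay above these (15.0 to 17.9 in TG, 39.7 to 43.2 in WT). Of endothelial-like cells, 0 of 24 had a Dsp UMI in TG, which allows a share of up to 12.5% by a limit of 3 counts and of up to 14.2% by the exact interval, and 1 of 106 in WT (0.943%).

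Among the other genes, the thinned share of beta cells with a Cldn7 UMI was 18.2% in TG and 33.5% in WT, against 6.25% of TG and 5.41% of WT macrophage-like cells. For Jup it was 12.0% in TG and 18.9% in WT beta cells, but 15.6% of TG and 5.41% of WT macrophage-like cells. The TG beta share of Jup was thus not above the TG macrophage-like share, which is not read as free RNA alone. Without thinning the TG shares of Jup were 39.7% of beta and 32.8% of macrophage-like cells (21.6 to 45.7). Jup is also a component of endothelial junctions, and 33.3% of TG and 41.5% of WT endothelial-like cells had a UMI. Pkp2 was in 3.83% of TG and 4.07% of WT beta cells and in 0 of 64 TG and 0 of 74 WT macrophage-like cells; a count of 0 there leaves room for 4.69% in TG and 4.05% in WT by the limit of 3 counts. Without thinning, Pkp2 was in 13.8% of TG (12.5 to 15.1) and 15.5% of WT beta cells (14.3 to 16.8), above the macrophage-like cells, where it was in 0 of 64 in TG (exact upper bound 5.60%) and 1 of 74 in WT (1.35%, upper bound 7.30%). The beta shares of Cldn3, Cldn4, Cdh1, Epcam, Gjd2 and Krt18 ran from 17.9% to 68.1% in TG and from 19.1% to 67.0% in WT, each above the macrophage-like share of its library. Shares of cells are given because sums over this class can rest on 1 cell: in TG a single macrophage-like cell held 134 of 154 Cldn4 UMIs, and a single cell held 230 of 267 Krt18 UMIs.

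**Figure D4:**
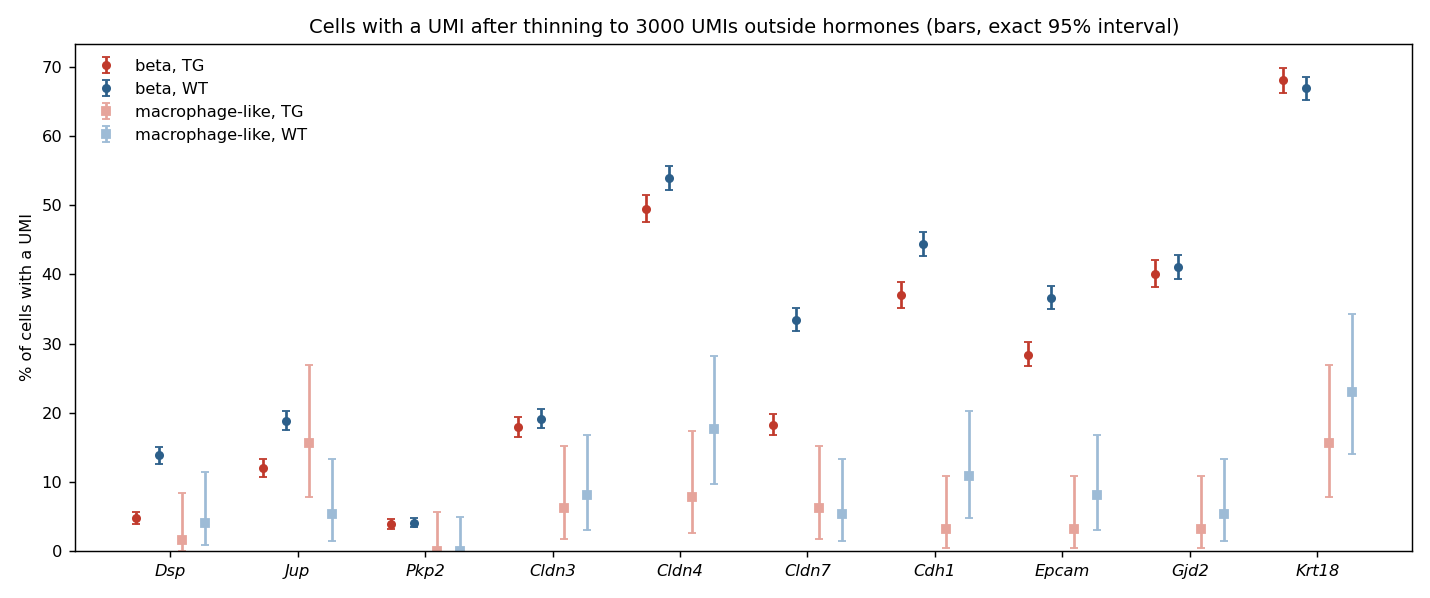
Percentage of cells with at least 1 UMI of each gene after thinning to 3000 UMIs outside the hormone genes, with exact 95% intervals: beta cells as circles (TG red, WT blue) and macrophage-like cells as squares (TG pale red, WT pale blue). For Dsp the beta shares are 4.75% in TG and 13.8% in WT, and the TG macrophage-like interval spans the TG beta share.

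Insulin share, mitochondrial share and total UMIs (medians of 29038 in TG and 23186 in WT) differed between the libraries, so the beta cells were also compared within bins of each and of UMIs outside the hormone genes, with Dsp given per 1000000 UMIs outside the hormone genes; these bins were chosen after the data had been seen. In TG beta cells it was 28.7 at an insulin share of 25 to 40%, 28.6 at 40 to 50%, 16.9 at 50 to 60% and 11.9 at 60 to 70%; in WT beta cells the values of the same bins were 61.3, 48.2, 43.8 and 38.5. Within these 4 bins the log2 ratio of TG over WT was −1.10, −0.75, −1.38 and −1.70, with each interval below 0. The ratios below 60% were nearer 0 than the −1.58 over all beta cells, and that of 60 to 70% was farther from 0. The bin of 70% or more held 136 TG cells and only 18 WT cells with 2 Dsp UMIs, and its ratio of −0.14 (−2.21 to 3.01) rests on those 2 UMIs. Dsp was lower in TG in 5 of 5 bins of mitochondrial share, at −1.51 to −1.06, in 5 of 5 bins of total UMIs, at −1.61 to −1.14, and in 5 of 5 bins of UMIs outside the hormone genes, at −2.19 to −1.25. Against −1.58 over all beta cells, every mitochondrial bin was nearer 0, and the bins of both UMI counts lay on either side. Over the bins of UMIs outside the hormone genes, low to high, TG stayed at 13.9 to 16.9 with overlapping intervals, while WT was highest in the lowest bin (63.6) and lowest in the highest (39.7). Its level went with the mitochondrial share in both libraries: TG cells under 1.5% had 12.4 and those from 3.5% up 24.4, and the same bins of WT had 25.8 and 57.6.

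**Figure D5:**
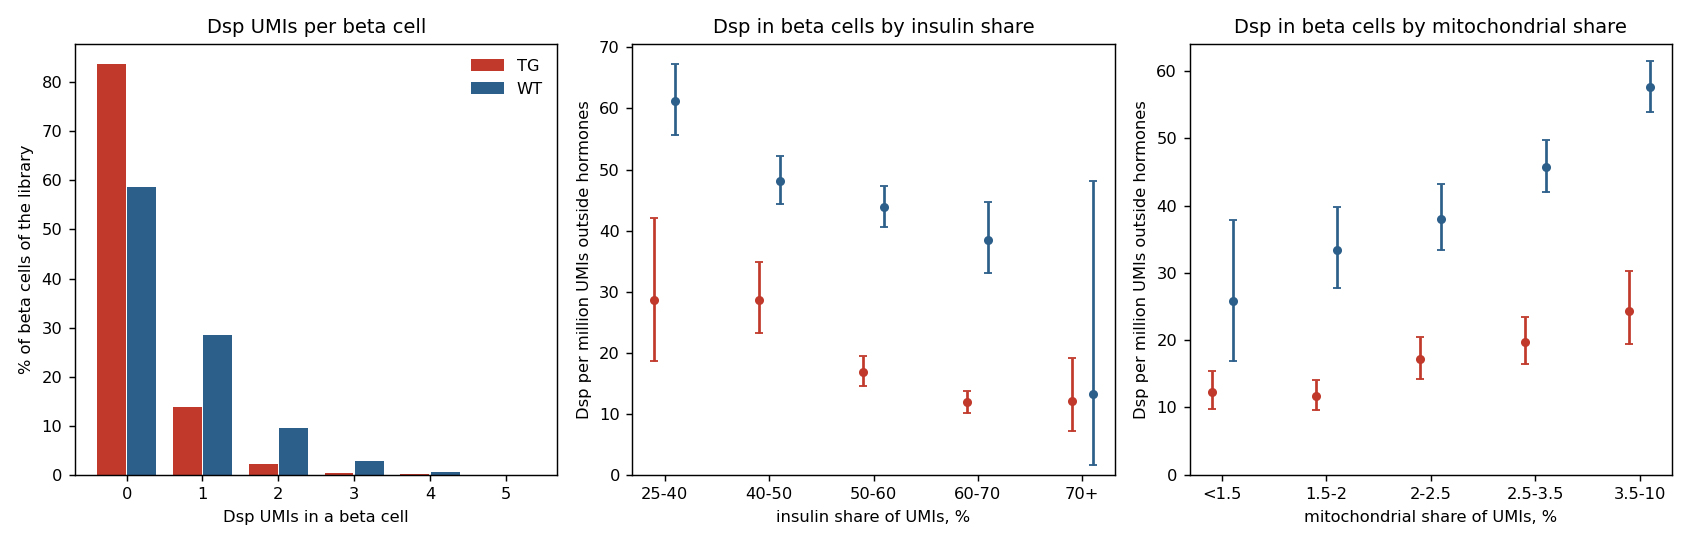
Dsp in beta cells, TG in red and WT in blue: percentage of beta cells with 0 to 5 Dsp UMIs (left), and Dsp per 1000000 UMIs outside the hormone genes in bins of insulin share (middle) and of mitochondrial share (right), with exact Poisson 95% intervals. TG lies below WT in every bin, though at 70% insulin or more WT rests on 18 cells.

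Cldn7 was lower in TG in 5 of 5 bins of insulin share, with log2 ratios from −1.17 to −0.69, and its level stayed between 58.3 and 82.7 in TG and between 113 and 143 in WT. For 3 of the genes with smaller differences the ratio was nearer 0 within bins of insulin share than over all beta cells: Jup ran from −0.39 to 0.15 and was lower in 4 of 5 bins, Cdh1 ran from −0.17 to 0.04, and Cldn4 from −0.21 to 0.21. Epcam was lower in 5 of 5 bins, from −0.58 to −0.09. Within bins of mitochondrial share, 2 genes near 0 over all beta cells were lower in TG in 5 of 5 bins. Krt18 ran from −0.25 to −0.12, with 4 intervals below 0, and Cldn3 from −0.45 to −0.10, with 3 below 0. Gjd2 was lower in only 1 of these 5 bins (−0.16 to 0.27), and Jup in 4 (−0.62 to 0.23). The part of insulin share and mitochondrial share in the beta ratios was not tested beyond the values given.

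The TG library differed from WT in other measured ways as well. Summed acinar markers were at 128 CPM in TG and 38.7 CPM in WT beta cells, summed endothelial markers at 20.8 CPM in TG and 32.1 CPM in WT, and summed macrophage markers at 62.0 CPM in TG and 61.8 CPM in WT. Summed duct markers were at 217 CPM in TG and 198 CPM in WT, with Mmp7 at 0 in both, and summed stellate markers at 4.52 CPM in TG, where Col1a1 was at 0, and 8.01 CPM in WT. The duct sum was mostly Krt7, with 9265 of 10773 UMIs in TG and 10458 of 11775 in WT. Summed markers of the other endocrine classes were higher in TG beta cells. Alpha markers summed to 6848 CPM in TG and 4035 CPM in WT, delta markers to 654 CPM in TG and 398 CPM in WT, and gamma markers to 4545 CPM in TG and 3369 CPM in WT. In TG, Gcg held 206130 and Ttr 129833 of 339253 alpha marker UMIs, and Sst held 29660 of 32417 delta marker UMIs. Gcg and Sst also set the class rules. Each of the other alpha markers was higher in TG too, while the delta marker Rbp4 differed little (42.6 CPM in TG, 39.5 CPM in WT). The part of these markers in the ratios was not tested. The ratio of Dsp was −1.59 (−1.75 to −1.42) between TG and WT beta cells with a Y-linked UMI and no Xist. These TG cells stood at 0.54 (−0.04 to 1.19) over TG beta cells with Xist and no Y-linked UMI. Cells with both were in neither group.

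The other genes of these contacts were described from a list of 72 symbols, of which 65 were in the gene table and 42 had at least 100 UMIs in beta cells. Their median log2 ratio was −0.15, against −0.02 over all genes, with 29 below 0 (52.9% of all genes) and 13 above; 1 was at least 1.5-fold lower (3.40% of all genes) and 4 were at least 1.5-fold higher (4.27%). All 7 other desmosome genes measured were below 0, between −0.33 and −0.07, but the intervals of Dsg2, Dsc2, Perp and Evpl include 0. The desmosomal cadherin Dsg2 was at −0.11 (−0.28 to 0.06), with 10.6 CPM in TG and 11.4 CPM in WT. Pkp4 was at −0.15 (−0.23 to −0.08). Periplakin (Ppl), which like desmoplakin is a plakin, was at −0.33 (−0.57 to −0.09). Of 17 other tight junction genes 11 were below 0, of 13 other adherens junction genes 9, of 3 other simple keratins 1 and of 2 other gap junction genes 1, to be read against the same 52.9%.

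At the low end of this list stood Pvrl2 (nectin 2, an adherens junction protein) at −0.61, with 13.04 CPM in TG and 19.9 CPM in WT beta cells. Marveld2 (tricellulin) was at −0.46 and F11r (junctional adhesion molecule A) at −0.39. At the high end were Cldn6 at 1.14, with 6.36 CPM in TG and 2.89 CPM in WT, the keratin gene Krt19 at 0.87, the catenin gene Ctnna2 at 0.71 and the pannexin gene Panx2 at 0.62. In alpha cells Marveld2 was at 0.41 and F11r at 0.44, higher in TG. Pvrl2 in alpha cells was at −0.46, so it was below 0 in both classes.

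Dsp had low correlations from cell to cell with the genes named here, and counts this sparse can by themselves keep such values low. Across beta cells of 1 library, which share that library and its depth, its Pearson correlation with Cldn4 was 0.10 in TG (2624 cells) and 0.13 in WT (3194 cells), and with Jup 0.08 in TG and 0.11 in WT; the counts are sparse, and no relation is read from these values. Of 9898 genes compared, the 6 with the highest lower value of the 2 libraries were Rpl41, Cldn4, Acly, Sowahc, Gm10076 and Jund, at 0.09 to 0.12 in TG and 0.10 to 0.15 in WT.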

How the data were processed

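The deposited files hold counts: whole UMIs per gene and cell barcode, with no normalization. Per the submitters' processing notes they were made with Cell Ranger 2.1.0, STAR 2.5.1b and mouse build mm10; the annotation release and the filter behind the deposited barcodes are not given in the sources used here. Gene positions are from GENCODE M21 (GRCm38), matched by gene ID.

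Cells needed at least 500 genes, 1000 UMIs and at most 10% mitochondrial UMIs, which removed 15 TG and 20 WT barcodes. Scrublet (scanpy 1.11.5) marked 0.145% of TG and 0.0442% of WT cells by its own threshold, less than the 0.5% required; the 4% of cells scoring highest (166 TG, 181 WT) were left out instead, leaving 3977 TG and 4339 WT cells. UMIs were summed per class and library and scaled by TMM factors (edgeR 4.0.16) over the 8 sums, as the only use of edgeR. Ratios have exact conditional binomial 95% intervals, and differences between classes delta-method intervals. PCR and cell sampling add error that these counting intervals leave out. Ratio code was checked on simulated data. Python 3.11.15, numpy 2.4.6, scipy 1.17.1, pandas 2.3.3 and R 4.3.3 were used.

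The 10 genes, the list of 72 symbols and the markers were chosen with earlier results of these data known. All 10 genes are named; of the list, the 4 genes with the ratio farthest from 0 in each direction among those with at least 100 UMIs, 1 of which is not reported here; for likeness to Dsp, the 6 genes with the highest lower correlation among those with a UMI in at least 5% of beta cells of both libraries, on log(1 + UMIs per 10000 UMIs outside hormones). Krt7, Krt8, Dsg2, Dsc2, Perp, Evpl, Pkp4, Ppl, Ttr, Rbp4 and Wbscr25 were named after their values were seen.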

Additional observations from a re-analysis of the deposited data

Results flagged for a closer look

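For 4 of the genes, TG beta cells and TG cells of another class differed from WT in opposite directions, with both counting intervals clear of 0. None of these differences was tested across samples, since each group is 1 library. For Dsp the beta minus delta difference of the log2 ratios was −2.14, resting on 104 TG and 57 WT UMIs in delta cells. For Cldn7 the beta minus alpha difference was −1.20. For Cldn4 the difference was −0.74 against alpha and −0.65 against gamma cells, and for Epcam −0.54 against alpha and −0.84 against gamma cells. The ratios outside beta cells varied with the processing settings. Cldn4 ran from 0.03 to 0.39 in gamma and from 0.32 to 0.60 in alpha cells. Epcam ran from 0.25 to 0.48 in gamma and from 0.14 to 0.30 in alpha cells. Dsp in delta cells ran from 0.22 to 0.59 and Cldn7 in alpha cells from 0.13 to 0.20. Counting intervals of these alternatives are not given here.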

How the results depend on the processing

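No paired analysis was possible because each group is 1 library, and for the same reason no replicate could be left out. Scaling by total UMIs, insulin included, moved the median of all genes in beta cells to −0.33, against −0.02. Every gene moves by the same amount, so the order of the genes cannot change. Dsp was at −1.89 and the median of the other 9 at −0.60. Of the 10 genes, 6 were at least 1.5-fold lower, where 15.4% of all genes then were. Krt18 and Cldn3, near 0 over all beta cells with TMM scaling, were at −0.29 and −0.25. Of the 42 listed genes, 13 were then at least 1.5-fold lower and 1 higher (2.02% of all genes), and 9 of the 10 genes were lower in beta than in alpha cells of WT, against 5. Under the other scalings, filters, doublet settings, class rules and Y-linked cells alone, Dsp in beta cells ran from −1.66 to −1.496. Within the bins of beta cells described above, Dsp ran from −2.19 to −0.14, the latter in a bin with 2 WT Dsp UMIs. Jup was no longer 1.5-fold lower without doublet removal, without any cell filter, or at an insulin share of at least 40%, where 2 genes (Dsp and Cldn7) were. The listed genes at least 1.5-fold lower numbered 0 without doublet removal, without any cell filter, by the mean over cells and at 2-fold, and 5 with no minimum of UMIs; those higher numbered 1 at 2-fold and 11 with no minimum. The share of beta cells with a Dsp UMI was 16.4% in TG and 41.5% in WT unthinned, and 1.64% in TG and 7.29% in WT at 3000 UMIs of all genes. Depth limits Pkp2 in delta and gamma cells, with 27 to 41 UMIs per library, and all values of endothelial-like cells. The cause of these shifts was not tested.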
